A study of Mus musculus with 36 samples.

Results

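The liver libraries of this series were used to ask for which genes the effect of an adipocyte deletion of Mlkl differed between diets. All 18 liver libraries of the 36 libraries in the series were taken, and the other 18 come from the epididymal fat of the same mice. The mice were C57BL/6J males, 16 weeks old at the start, and ate either standard chow (NCD) or food rich in fat (HFD) for 16 weeks. MlklAdi-KO mice (KO) carried loxP-flanked Mlkl alleles and the Adipo-Cre transgene, which is active in mature adipocytes, and wild-type littermates (WT) carried the same floxed alleles without Cre. There were 4 WT and 4 KO mice on NCD and 5 WT and 5 KO mice on HFD, with 1 liver library per mouse. The interaction was the KO minus WT difference on HFD less the KO minus WT difference on NCD, in log2(FPKM + 1), where FPKM are the deposited fragments per kilobase of gene, scaled to a size set for each library. A positive interaction therefore means that KO stood higher relative to WT on HFD than on NCD. With the pseudocount of 1, differences of low genes come out smaller than they are.

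The Cre is made for adipocytes, and liver receives from other tissues the nutrients, hormones and cytokines carried in blood. It answers such inputs through transcription factors that respond to fatty acids, insulin, glucocorticoids, growth hormone, Wnt ligands from the central vein and bone morphogenetic proteins. Many genes of lipid, heme and glutathione metabolism sit downstream of these inputs and are reset when a mouse is fed fat. In RNA from whole liver, fewer cells of a type and less RNA per cell cannot be told apart.

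Each library held 20875463 to 25530574 reads on genes (median 23064730.5), recovered from the FPKM as whole numbers. The size to which the FPKM were scaled was 0.737 to 0.812 of these reads, lowest in KO HFD mouse 156 and highest in WT NCD mouse 182. The hepatocyte genes Cps1, of the urea cycle, and Hpd, of tyrosine breakdown, were between 577 and 1125 FPKM and between 796 and 1427 FPKM in all 18 libraries. Mlkl itself, for which no liver deletion was designed, ranged from 1.63 to 4.19 FPKM in liver, with an interaction of −0.04 ± 0.24 (standard error; adjusted p = 0.996, limma). In fat, which holds the deleted cells, the KO mice on NCD had 1.96 to 2.49 FPKM of Mlkl and WT mice 165, 180 and 183 had 3.91 to 5.11 FPKM. There the value was 2.29 FPKM in the library labelled WT NCD mouse 182, within the KO range and against its label. The liver library of the same mouse stood apart on the second principal component, at 41.7, while the others lay between −15.0 and 12.9. It had 1317 FPKM of Kng1, the kininogen gene, against 735 to 794 FPKM in the other WT and 1420 to 1619 FPKM in the KO livers on NCD. Eif4a2, looked up as another check, went the other way in fat, with 58.3 FPKM in mouse 182. There the other WT mice on NCD had 52.1 to 53.8 FPKM and the KO mice 73.4 to 81.2 FPKM. The library of mouse 182 was kept in its labelled group. The counts over all genes, and the list counts that it moves by more than 1.5 times, are given with and without it.

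Across 13248 genes with a mean of at least 0.5 FPKM, 2 had an adjusted p under 0.05 for the interaction (limma with Benjamini-Hochberg adjustment), which is 0.0151% of the genes. Both were positive. An unadjusted p under 0.05 was reached by 811 genes (6.12%), of which 442 were positive (3.34%) and 369 negative (2.79%). Genotype effects of opposite sign on the diets, of any size, were found for 5749 genes (43.4%). A gene was called reversed where the signs were opposite and the unadjusted p was under 0.05 on each diet. This held for 54 genes (0.408%), 34 of them lower in KO on NCD and higher in KO on HFD (0.257%) and 20 the other way round (0.151%). The 54 lay on 19 chromosomes, with at most 10 on one, and 44 were protein coding. For 10 genes (0.0755%) every KO mouse was on one side of every WT mouse on NCD and on the other side on HFD, 6 of them higher in KO on HFD (0.0453%) and 4 lower (0.0302%). Taken by diet, the genotype difference had an adjusted p under 0.05 for 3 genes on NCD (0.0226%) and 28 on HFD (0.211%). The calls depended on the tool. On the recovered reads, edgeR called 1 gene (0.00755%) and DESeq2 called 63 (0.476%), 46 positive (0.347%) and 17 negative (0.128%), and 32 of the 63 were among the 54 reversed genes.

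**Figure D1:**
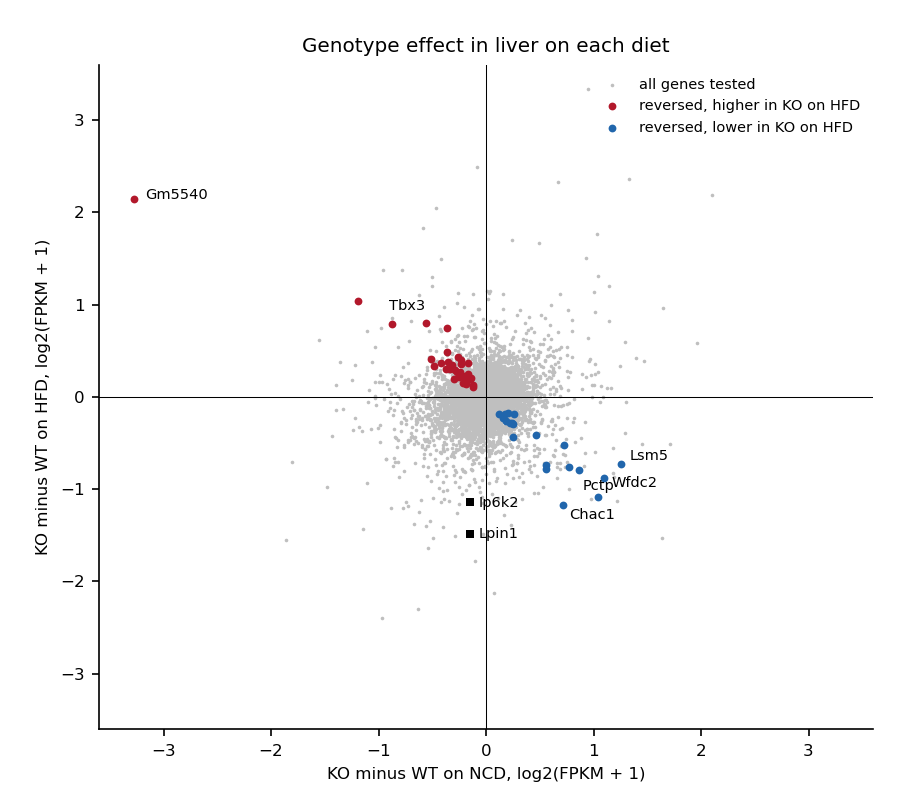
Genotype effect in liver on each diet, one point per gene, with KO minus WT on NCD on the x axis and on HFD on the y axis, both as differences of log2(FPKM + 1). The 34 genes reversed towards KO on HFD are red in the upper left, the 20 reversed the other way are blue in the lower right, and the black squares Ip6k2 and Lpin1 lie near 0 on NCD and far below 0 on HFD.

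The largest interaction belonged to Gm5540, a processed pseudogene on chromosome 3 (chr3:65300758-65302605, plus strand, GRCm39). It is an intronless copy of Acsf2, a mitochondrial acyl-CoA synthetase gene on chromosome 11, and all of its 1848 bases aligned to the Acsf2 transcript over the open reading frame, with 18 differing bases and 99.03% identity. The following stretches of both, from the reference annotation, are shown because they hold 4 of the 18 differences, in capitals, and show how few bases tell a read of one from a read of the other.
Gm5540: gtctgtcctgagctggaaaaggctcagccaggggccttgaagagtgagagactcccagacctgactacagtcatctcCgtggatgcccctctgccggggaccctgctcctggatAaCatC
Acsf2: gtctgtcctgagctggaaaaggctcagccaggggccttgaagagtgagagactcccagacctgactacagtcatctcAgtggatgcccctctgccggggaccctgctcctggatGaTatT
Of the 31-base words of Gm5540, 75.5% also occur in Acsf2, so the split of reads between them is uncertain.

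On NCD, Gm5540 was 12.6, 10.9 and 11.8 FPKM in WT mice 165, 180 and 183 and 24.0 FPKM in the library labelled WT NCD mouse 182, against 0.482 to 0.684 FPKM in the 4 KO mice. The KO mice on HFD had 8.27, 8.37, 9, 9.57 and 10 FPKM, and 4 of the WT mice on HFD had 0.332, 0.414, 0.664 and 0.756 FPKM. WT HFD mouse 162 had 9.84 FPKM and was the only mouse of its group within the high range, so the groups were apart on NCD and overlapped on HFD. The difference was −3.27 ± 0.47 on NCD and 2.15 ± 0.42 on HFD, and the interaction was 5.42 ± 0.63 (adjusted p = 0.00217, limma). Without mouse 182 the interaction was 5.17 (adjusted p = 0.00765, limma), the lowest of 5.17 to 5.98 with any 1 mouse left out, and edgeR gave an adjusted p of 0.0501. The 18 livers fell into 10 with 8.27 to 24.0 FPKM and 8 with 0.332 to 0.756 FPKM, with none between. In fat the same 10 mice had 0.530 to 9.63 FPKM and the other 8 had 0.0182 to 0.155 FPKM. Of 5 genes tested within 1 Mb, Gm5540 was the only one with an unadjusted p under 0.05.

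Acsf2 itself ran the opposite way at a far higher level. It was 78.5 to 101 FPKM in WT and 103 to 119 FPKM in KO livers on NCD, and 91 to 104 FPKM in WT and 76.8 to 101 FPKM in KO livers on HFD. The groups were apart on NCD and overlapped on HFD. Its interaction was −0.41 ± 0.11 (unadjusted p = 0.00247, adjusted p = 0.344, limma), and it was named after its values were seen. What share of either difference comes from reads assigned to the other copy was not tested.

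**Figure D2:**
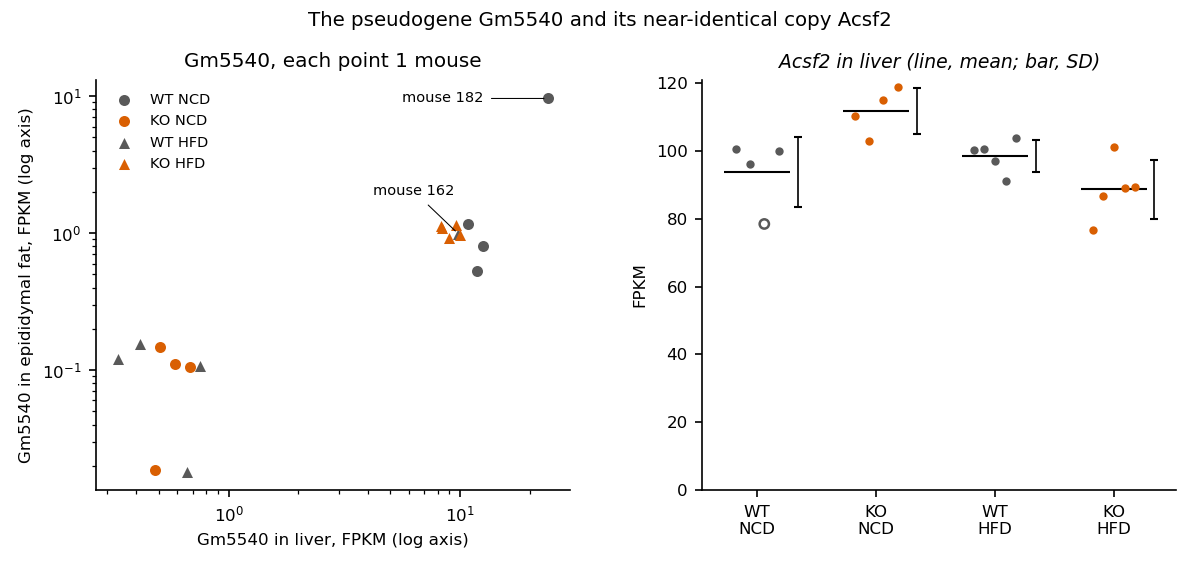
Left, FPKM of Gm5540 in the liver (x axis) and epididymal fat (y axis) of each of 18 mice, on log axes; right, FPKM of Acsf2 in liver by mouse, with the group mean as a line and the SD as a bar. The mice form 2 separate clouds for Gm5540 in both tissues, 10 high and 8 low, and mouse 162 is in the high cloud with the KO HFD mice.

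The genes just outside the threshold were Tbx3 and Sertad3, both with an adjusted p of 0.0582 (limma). Tbx3 (chr5:119808734-119822789, plus strand, GRCm39) encodes a T-box factor that beta-catenin induces in hepatocytes near the central vein. On NCD it was 4.69 to 7.49 FPKM in WT and 2.71 to 5.50 FPKM in KO livers, and on HFD 3.98 to 5.92 FPKM in WT and 7.6 to 10.3 FPKM in KO livers. The groups overlapped on NCD and were apart on HFD. The interaction of Tbx3 was 1.36 ± 0.23, from −0.55 ± 0.17 on NCD and 0.80 ± 0.15 on HFD, and without mouse 182 it was 1.29. Sertad3, a SERTA-domain cofactor of transcription, was named after its values were seen. Its WT livers went from 5.73 to 7.77 FPKM on NCD to 2.08 to 2.52 FPKM on HFD, and its KO livers from 4.94 to 6.52 FPKM to 3.33 to 5.72 FPKM. The interaction was 0.98 ± 0.16, most of it from HFD, where KO minus WT was 0.75 ± 0.11 (adjusted p = 0.00606, limma).

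**Figure D3:**
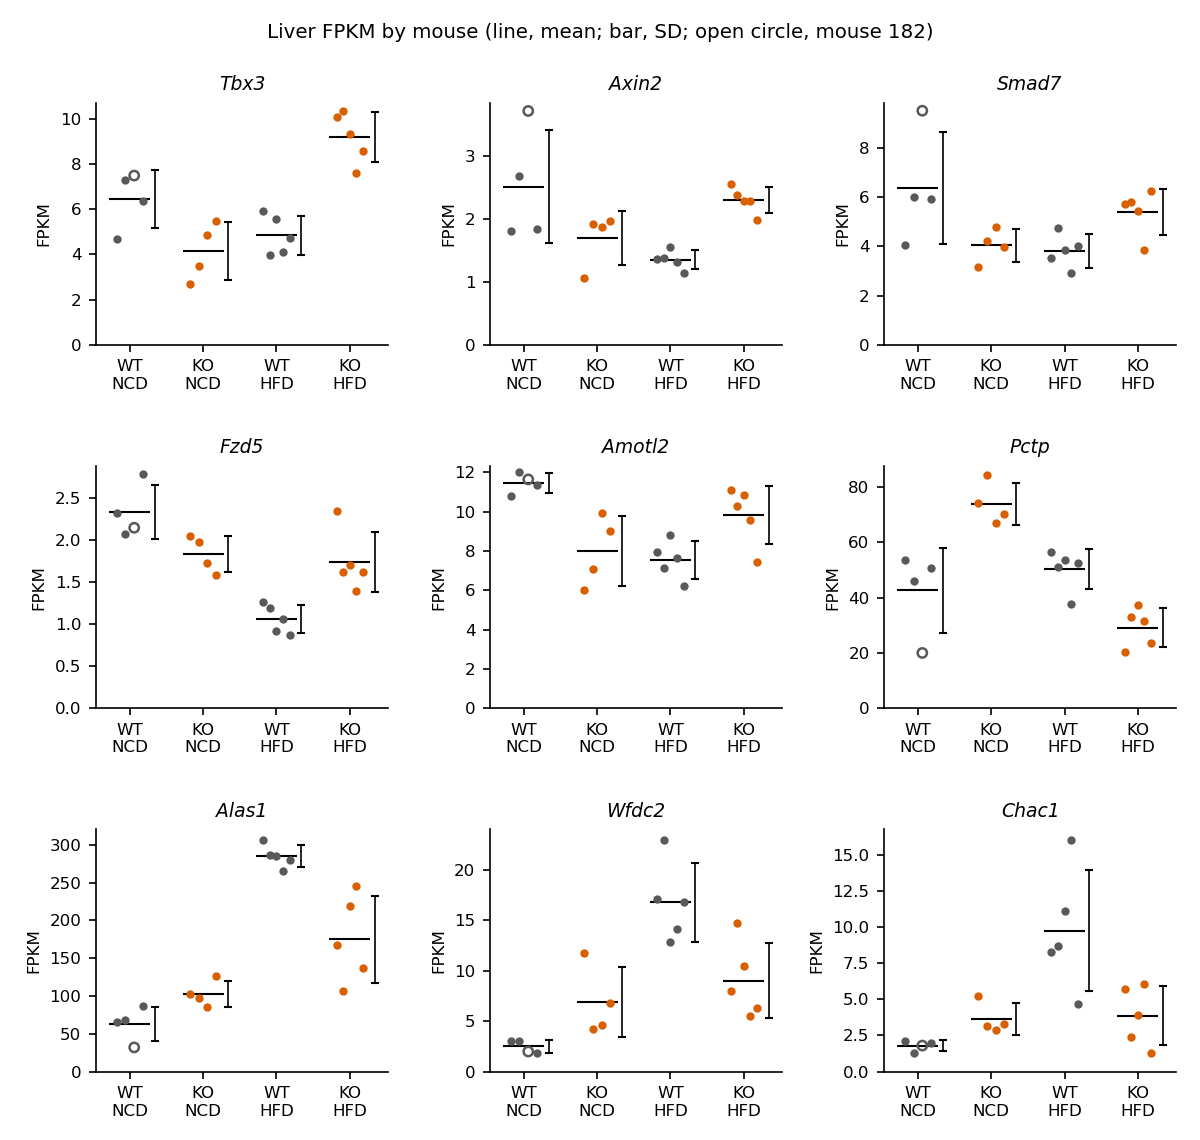
FPKM in liver of 9 reversed genes, one point per mouse, in WT (grey) and KO (orange) on NCD and HFD, with the group mean as a line and the SD as a bar, and mouse 182 as an open circle. Fzd5 and Pctp separate all KO from all WT mice on both diets in opposite directions, and the other genes overlap on at least 1 diet.

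Since Tbx3 is a beta-catenin target, 20 Wnt feedback and target genes were listed after the values were seen, and this list supports nothing by itself. Wnt ligands bind Frizzled receptors and stabilize beta-catenin, which with TCF/LEF factors turns on genes that damp the same signal. Of 16 members tested, 6 had a positive and 1 a negative interaction at an unadjusted p under 0.05 (43.8%, against 6.12% of all genes), and the median was 0.15, against 0.0015 over all genes. Without mouse 182 the counts were the same, 6 and 1, and the median was 0.098. Whatever their p, 9 of the 16 interactions were positive and 7 negative with all mice, and 10 and 6 without mouse 182. A list of pericentral genes, written with earlier results of these data known in part, holds Tbx3, Axin2 and Rnf43. With all mice these were the 3 of its 24 genes with an unadjusted p under 0.05, all positive (12.5%, median 0.097). The count was the same without mouse 182, and this list supports nothing by itself either. Of 22 periportal genes 0 had such a p (median 0.14), or 1 positive and 1 negative without mouse 182. Axin2, which encodes a scaffold of the complex that destroys beta-catenin, was 1.06 to 1.96 FPKM in KO and 1.81 to 3.72 FPKM in WT livers on NCD, with mouse 182 the highest and the groups overlapping. The HFD groups did not overlap, at 1.99 to 2.56 FPKM in KO and 1.14 to 1.56 FPKM in WT livers. Its interaction was 0.85 ± 0.19 (adjusted p = 0.185, limma), and without mouse 182 it was 0.69 and the NCD difference of −0.21 had an unadjusted p of 0.112. Rnf43, a ubiquitin ligase that removes Frizzled from the membrane, had a difference of −0.02 on NCD and 0.59 on HFD. Sp5, a zinc finger factor induced by Wnt, had −0.18 on NCD and 0.66 on HFD. On HFD alone the adjusted p was 0.0227 for Rnf43 and 0.00791 for Sp5 (limma), while their interactions had an adjusted p of 0.239 and 0.101.

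Fzd5, a Frizzled receptor gene, was 2.08 to 2.79 FPKM in WT and 1.59 to 2.05 FPKM in KO livers on NCD, and 0.877 to 1.26 FPKM in WT and 1.40 to 2.34 FPKM in KO livers on HFD. It is 1 of the 10 genes with the groups apart on both diets, with an interaction of 0.63 ± 0.13 (adjusted p = 0.153, limma). Fzd7, another Frizzled gene, had an interaction of 0.59 ± 0.15, mostly from HFD (0.44), where mouse 157, at 6.69 FPKM, was the only KO mouse within the WT range of 5.42 to 7.36 FPKM. Sox9, a factor of bile duct cells that Wnt also induces, had 1.09 ± 0.28 with mouse 182 at 6.83 FPKM, above all other livers, and 0.84 without it. Tnfrsf19, at −0.57, was the 1 member of the Wnt list with a negative interaction at an unadjusted p under 0.05.

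Promoters of these genes were searched for TCF/LEF words (CTTTG followed by AA, AT, TA or TT, on either strand) in the 250 bases before the RefSeq start site in GRCm38.p6. Such words lie in 4527 of 27025 genes with a window (16.75%), in 2 of the 24 genes reversed towards KO on HFD that have one, and in 5 of 11 Wnt list genes. These 5 were Dkk1, Fzd7, Lef1, Sp5 and Tnfrsf19, so the words occur in genes of either direction, since the interaction of Tnfrsf19 was negative. The windows of Sp5 (chr2:70474673-70474922, plus strand) and Fzd7 (chr1:59481897-59482146, plus strand) are printed because they hold a word, in capitals, where AACAAAG is CTTTGTT read on the other strand.
Sp5: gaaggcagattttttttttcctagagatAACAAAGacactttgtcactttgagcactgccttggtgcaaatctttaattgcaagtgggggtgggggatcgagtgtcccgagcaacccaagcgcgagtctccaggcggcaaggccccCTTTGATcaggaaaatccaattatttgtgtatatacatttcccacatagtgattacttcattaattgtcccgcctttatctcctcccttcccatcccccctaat
Fzd7: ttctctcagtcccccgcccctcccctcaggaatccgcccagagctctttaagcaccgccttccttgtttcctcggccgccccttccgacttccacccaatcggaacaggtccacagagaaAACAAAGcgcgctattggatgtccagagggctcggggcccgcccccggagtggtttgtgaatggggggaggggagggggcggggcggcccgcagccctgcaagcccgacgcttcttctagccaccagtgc
The windows of Axin2, Rnf43 and Fzd5 hold no such word. A match is a description of the letters and not a binding site.

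A second list added after the values were seen held feedback genes of TGF-beta and bone morphogenetic proteins, the ligands that signal through SMAD factors. Of 16 tested, 5 were positive at an unadjusted p under 0.05 and 0 negative (31.2%, against 6.12%), with a median interaction of 0.44, and all 5 also had an unadjusted p under 0.05 without mouse 182 (median 0.26 over 15 genes). Smad7, the inhibitory SMAD that blocks the receptors, was 4.05, 5.93 and 6.02 FPKM in WT mice and 9.52 FPKM in mouse 182 on NCD, and 3.16 to 4.80 FPKM in KO mice. On HFD it was 2.93 to 4.77 FPKM in WT and 3.84 to 6.26 FPKM in KO livers, so the groups overlapped on both diets. Its interaction was 0.92 ± 0.24 (adjusted p = 0.266, limma), or 0.73 without mouse 182. Skil, a corepressor of SMADs, had 0.45 ± 0.11 and was reversed with and without that mouse, at −0.22 on NCD and 0.23 on HFD. Id2 and Id3, inhibitors of helix-loop-helix factors, had 1.13 ± 0.32 and 1.37 ± 0.47. Mouse 182 was the highest NCD mouse for both, at 90.6 FPKM of Id2 and 59.0 FPKM of Id3.

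Amotl2, a YAP target that binds YAP and was also reversed towards KO on HFD, was 10.8 to 12 FPKM in WT and 6.02 to 9.93 FPKM in KO livers on NCD, and 6.23 to 8.84 FPKM in WT and 7.44 to 11.1 FPKM in KO livers on HFD. Only KO HFD mouse 157 fell within the WT range, and the interaction was 0.83 ± 0.18. Midn, whose product midnolin carries unstable nuclear proteins to the proteasome, had 0.70 ± 0.15, with mouse 182 the highest of all livers at 22 FPKM, and 0.57 without it. Bcor, a corepressor of BCL6, had 0.67 ± 0.15, and Bcl6, a repressor of fasting and female-biased genes that was not in the reversed set, had 1.44 ± 0.35 from a difference of −1.06 on NCD. Irf1, an interferon regulatory factor, had 0.64 ± 0.17, Tk1, a thymidine kinase, 0.66 ± 0.19, Slc25a29, a mitochondrial carrier of basic amino acids, 0.58 ± 0.12, and Apol9a, an interferon-induced apolipoprotein L gene, 0.78 ± 0.22. Apol9a shares 20.2% of its 31-base words with Apol9b and is uncertain. None of these passed the adjustment with limma (adjusted p from 0.130 to 0.347), while DESeq2 called all of them but Irf1.

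Further genes had all mice apart on both diets, and those given here had interactions between −0.52 and 0.41, apart from Rapgef4os3. Cdkn2aip, whose product binds the ARF tumour suppressor, was 3.97 to 4.23 FPKM in WT and 3.29 to 3.83 FPKM in KO livers on NCD, and 3.11 to 3.79 FPKM in WT and 3.83 to 4.70 FPKM in KO livers on HFD, an interaction of 0.41 ± 0.087. Msl2, a ubiquitin ligase of a histone acetylation complex, had 0.40 ± 0.081, Sh2b3, an adaptor that restrains cytokine receptors, 0.34 ± 0.073, and the J-domain protein gene Dnajc16 0.25 ± 0.074. Towards the other side, Alg14, of N-glycan assembly, had −0.39 ± 0.074 and Impa2, an inositol monophosphatase, −0.52 ± 0.10. Rapgef4os3, a long noncoding RNA antisense to Rapgef4, had −1.33 ± 0.31, and its reads cannot be told from those of its partner where the counting did not use strand. All 10 genes also kept every mouse apart without mouse 182, when 19 genes in all did so (0.144% of 13199).

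Genes reversed the other way were higher in KO on NCD and lower in KO on HFD. Pctp (chr11:89873491-89893720, minus strand, GRCm39) encodes a cytosolic carrier of phosphatidylcholine. On NCD it was 46, 50.9 and 53.7 FPKM in WT mice and 20 FPKM in mouse 182, against 67.0, 70.4, 74.3 and 84.5 FPKM in KO mice. On HFD it was 37.8, 51.1, 52.6, 53.8 and 56.7 FPKM in WT and 20.2, 23.7, 31.5, 33.1 and 37.5 FPKM in KO mice. The groups did not overlap on either diet, by a narrow margin on HFD. The interaction was −1.66 ± 0.33 (adjusted p = 0.130, limma) from 0.87 on NCD and −0.79 on HFD. Without mouse 182 it was −1.34 (unadjusted p = 2.52e-05, adjusted p = 0.0654, limma), and DESeq2 gave an adjusted p of 0.000647 with all mice. In fat the interaction of Pctp was −1.01 (unadjusted p = 4.39e-05, limma), from 0.43 on NCD and −0.58 on HFD.

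Alas1 (chr9:106110654-106125853, minus strand, GRCm39), the first and rate-limiting enzyme of heme synthesis, was 65.7 to 86.2 FPKM in WT mice 165, 180 and 183, 32.0 FPKM in mouse 182 and 85.4 to 127 FPKM in KO mice on NCD, where only KO mouse 197 was below a WT mouse. The HFD groups were apart, at 266 to 307 FPKM in WT and 106 to 246 FPKM in KO livers. WT livers thus had a diet difference of 2.24 and KO livers of 0.71, and the interaction was −1.53 ± 0.35 (adjusted p = 0.185, limma), or −1.24 without mouse 182. Wfdc2, a secreted protein with whey acidic protein domains, had a diet difference of 2.34 in WT and 0.37 in KO livers. On NCD it was 1.88 to 3.07 FPKM in WT and 4.18 to 11.8 FPKM in KO livers, with no overlap, and on HFD 12.9 to 22.9 FPKM in WT and 5.54 to 14.7 FPKM in KO livers, where KO mouse 152 overlapped. Its interaction was −1.97 ± 0.38 (adjusted p = 0.127, limma).

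Chac1, which degrades glutathione and is a target of the stress factor ATF4, was 1.27 to 2.14 FPKM in WT and 2.86 to 5.26 FPKM in KO livers on NCD, with no overlap. In HFD livers WT had 4.71 to 16.0 FPKM and KO had 1.31 to 6.04 FPKM, with WT mouse 164 inside the KO range. The interaction was −1.89 ± 0.44 (adjusted p = 0.203, limma). Of 16 tested genes of amino acid response and ATF4 targets, 2 had an unadjusted p under 0.05, Chac1 and Cth, in opposite directions, and the median was −0.020. Without mouse 182 only Chac1 did, of 14 tested. The promoter window of Chac1 (RefSeq, GRCm38.p6, chr2:119350992-119351241, plus strand) is shown because it holds the ATF4 element TGATGNAAN, in capitals as read on the other strand.
Chac1: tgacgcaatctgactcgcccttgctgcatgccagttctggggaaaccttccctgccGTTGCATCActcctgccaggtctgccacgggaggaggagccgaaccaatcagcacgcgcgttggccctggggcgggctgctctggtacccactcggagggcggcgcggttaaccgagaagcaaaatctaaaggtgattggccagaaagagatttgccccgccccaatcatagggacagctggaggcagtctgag
This element occurs in 1052 of 27025 genes with a window (3.89%), and the windows of Pctp, Wfdc2 and Alas1 hold none.

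Several of the large negative values came from few reads. Lsm5, of the LSm ring that binds RNA ends, had −1.98 ± 0.40 on 1 to 77 reads per library, and the small nucleolar RNA gene Snord58b had −2.13 ± 0.63 on 0 to 9 reads. All 31-base words of Snord58b lie in its host gene Rpl17, so its value is uncertain. Krt23, a keratin gene, had −1.24 ± 0.37, Apbb3, which binds the amyloid precursor protein, −0.69 ± 0.16, Vmp1, an autophagy protein of the endoplasmic reticulum, −0.53 ± 0.13, and the DNA glycosylase gene Neil1 −0.45 ± 0.12. These 6 genes had an adjusted p between 0.130 and 0.390 (limma).

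Leaving out the library labelled WT NCD mouse 182 kept the sign of the interaction for all 54 reversed genes and changed which genes met the rule. Of 13199 genes, 69 were then reversed (0.523%), 49 towards KO on HFD (0.371%) and 20 the other way (0.152%). The fits shared 32 genes, which is 59.3% of the 54 and 46.4% of the 69. Of the genes named, Smad7, Axin2, Midn, Irf1, Apol9a, Dnajc16, Chac1, Krt23, Apbb3, Vmp1, Neil1 and Rapgef4os3 were among the 22 that no longer met the rule. Their interactions kept an unadjusted p of 0.000161 to 0.00756 (limma). The threshold was passed by 3 genes (0.0227%), Gm5540 and Gm7049 among them, and an unadjusted p under 0.05 by 1008 (7.64%). Gm7049, a pseudogene that shares 66.2% of its 31-base words with the malic enzyme gene Me1, is uncertain and was named after its values were seen. It was 0.141 to 0.250 FPKM in 3 WT livers on NCD, 2.45 FPKM in mouse 182 and 3.37 to 4.40 FPKM in the KO livers. With HFD it was 0 to 0.0957 FPKM in WT and 0.607 to 1.27 FPKM in KO livers, so that KO was the higher genotype on both diets.

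Genes of the major urinary proteins (Mup), which growth hormone pulses drive in male liver, depended on this library. Mup7 was 1536, 1712 and 2484 FPKM in WT mice 165, 180 and 183 on NCD and 1.31 FPKM in mouse 182, against 457 to 1710 FPKM in KO livers. On HFD it was 672 to 3228 FPKM in WT and 3539 to 8419 FPKM in KO livers, with no overlap. The interaction of Mup7 was 0.73 ± 2.05 with all mice and 3.15 without mouse 182 (adjusted p = 0.157, limma). Mup9 had 1.91 and 2.34, Mup1 1.73 and 2.78, Mup11 1.81 and 3.21, Mup12 1.65 and 4.19, and Mup17 1.46 and 3.75, with and without that mouse. These 6 genes share 82.1% to 94.1% of their 31-base words with other genes, so they are uncertain one by one, and all but Mup1 and Mup9 were named after their values were seen. In the list of sex-biased and growth hormone-dependent genes, 3 of 41 tested had an unadjusted p under 0.05 (7.32%, median 0.12) with all mice. Without mouse 182, 16 of 39 did, all positive (41%, against 7.64% of all genes), and the median was 0.57, against 0.0097. In mouse 182 the growth hormone-dependent gene Hsd3b5 was 0.125 FPKM against 83.5 to 103 FPKM in the other WT livers on NCD, and the female-biased gene Cyp2b9 was 112 FPKM against 0.120 to 1.87 FPKM. The Y chromosome gene Ddx3y, looked up as a check, had 1828 reads in the liver of mouse 182, within the 1319 to 2053 reads of the other livers.

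**Figure D4:**
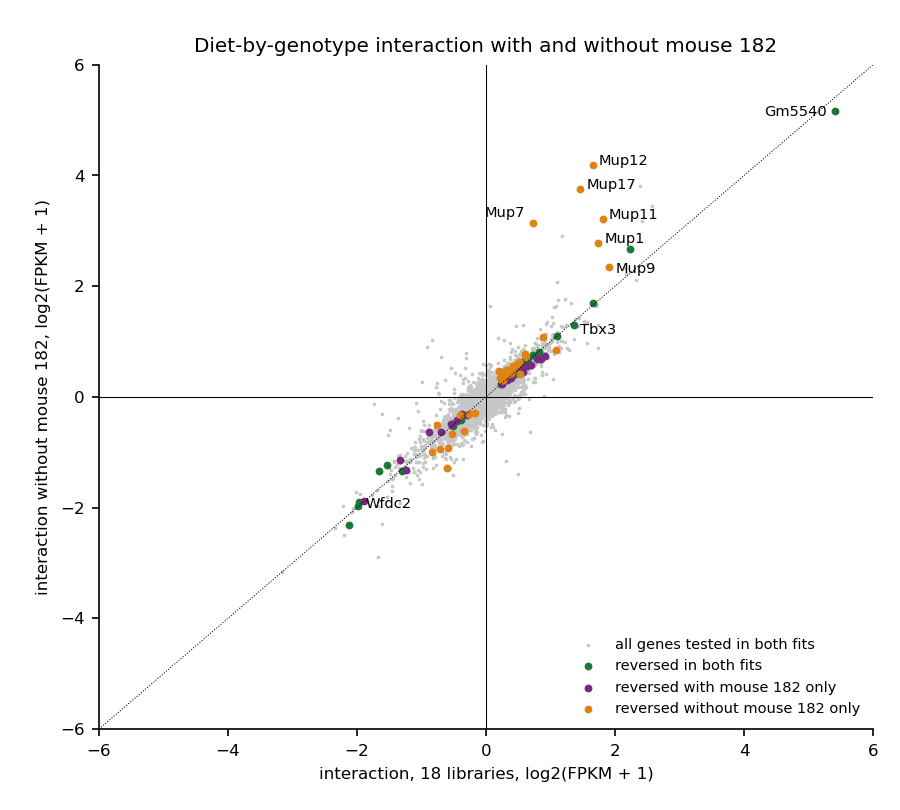
Interaction of each gene with all 18 libraries (x axis) and without mouse 182 (y axis), as differences of log2(FPKM + 1), with reversed genes coloured by the fit in which they met the rule. Most genes lie on the dotted diagonal, and the Mup genes lie above it, at 2.34 to 4.19 without that mouse.

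The study singled out Ip6k2 and Lpin1 in liver, and with all mice both had a genotype difference on HFD and one within its error on NCD. Ip6k2 (chr9:108660995-108683536, plus strand, GRCm39) encodes an inositol hexakisphosphate kinase, which makes inositol pyrophosphates. It was 19.0 to 25.8 FPKM in WT and 17.2 to 26.8 FPKM in KO livers on NCD, and 16.1 to 23.4 FPKM in WT and 5.62 to 9.60 FPKM in KO livers on HFD. The groups overlapped on NCD and were well apart on HFD. The difference was −0.15 ± 0.16 on NCD and −1.14 ± 0.15 on HFD (adjusted p = 0.00189, limma), and the interaction was −0.996 ± 0.22 (adjusted p = 0.172 with limma, 0.114 with edgeR and 0.00276 with DESeq2). Lpin1 (chr12:16585670-16696967, minus strand, GRCm39), the lipin that converts phosphatidate to diacylglycerol and coactivates PPAR-alpha, was 34.8 to 90.6 FPKM in WT livers on NCD, where mouse 182 was the lowest, and 54.7 to 62.3 FPKM in KO livers. The HFD groups were apart, at 53.7 to 92.4 FPKM in WT and 16.7 to 31.2 FPKM in KO livers. Its difference was −0.15 ± 0.25 on NCD and −1.48 ± 0.23 on HFD (adjusted p = 0.00791, limma), and its interaction was −1.33 ± 0.34 (adjusted p = 0.249 with limma, 0.219 with edgeR and 0.0173 with DESeq2). Without mouse 182 the NCD difference of Lpin1 was −0.44 (unadjusted p = 0.0434, limma).

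In a two-sided exact permutation test that exchanged genotypes within each diet (17640 arrangements), the interaction had p = 0.0193 for Ip6k2 and p = 0.0257 for Lpin1, both 0.0901 after Benjamini-Hochberg adjustment over 7 genes. On HFD alone each had an exact permutation p of 0.00794, the smallest that 5 against 5 allow, and 0.0278 after adjustment over the 7. Without mouse 182 the exact permutation p of the interaction was 0.0424 for Ip6k2 and 0.0698 for Lpin1, with interactions of −0.90 and −1.04. The study named both genes from its comparison of these same HFD livers. Their p on HFD is therefore no independent support, and the interaction contains the same HFD difference. Adjustment over 7 genes does not account for that choice. The other 5 genes of this family, Pparg, Mlxipl, Mlkl, Acaca and Ppara, had interactions between −0.33 and 0.21 (exact permutation p from 0.405 to 0.879). Lpin2, another lipin, had an interaction of −0.72, and Mogat1, which makes diacylglycerol from monoacylglycerol, had −0.96. With Lpin1 these 3 were the only ones with an unadjusted p under 0.05 of 32 lipid droplet and steatosis genes tested (9.38%), whose median was −0.14. Without mouse 182 there were 4 negative and 1 positive (15.6%).

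The gene lists were described by their counts and medians, beside 6.12% and 0.0015 over all genes. Of 28 immediate early genes, which are switched on within minutes of a stimulus, 8 were positive and 2 negative at an unadjusted p under 0.05 (35.7%), and the median was 0.33. Ier2 had 0.75, the matrix protein gene Ccn1 1.19, Egr1 1.43 and Klf10 1.71. Egr1 was 13.0 and 16.6 FPKM in WT mice 180 and 183, 14.5 FPKM in mouse 182 and 3.69 FPKM in WT mouse 165 on NCD, against 2.75 to 5.21 FPKM in KO livers, and 0.573 to 2.99 FPKM in all HFD livers. Without mouse 182 the list had 5 positive and 1 negative, with a median of 0.25.

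Genes of cholesterol synthesis had a positive interaction for 24 of 25 members with a median of 0.31, but only 3 had an unadjusted p under 0.05 (12%). These were Ebp, the sterol regulator gene Srebf2 (0.30) and Lss. Without mouse 182 only Ebp kept such a p (4%, against 7.64% of all genes), with 0.0556 for Srebf2 and 0.122 for Lss. Of 21 heat shock and cytosolic chaperone genes 19 were positive, 4 with an unadjusted p under 0.05 (19%), among them Hspa1a (1.22) and Fkbp5 (0.64). Hspa1a shares 65.4% of its 31-base words with other genes, mainly Hspa1b. Without mouse 182, 2 of the 21 had such a p (9.52%). Of 25 genes of endoplasmic reticulum stress and folding 20 were positive and 3 had such a p (12%, median 0.18), led by the chaperone gene Canx (0.22), and without mouse 182 it was 7 (28%). Of 38 interferon-stimulated genes 33 were positive and 5 had such a p (13.2%, median 0.17), with Irf9 at 0.48 and Igtp at 0.51. In the clock, 13 of 15 genes driven from E-box and D-box elements were positive, with Bhlhe40 (0.94) and Cry2 (0.34) at an unadjusted p under 0.05, and 4 of the 15 without mouse 182 (26.7%). The clock repressor gene Nr1d1 had 0.52.

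Lipid and detoxification genes were counted in the same way. Of 40 fatty acid oxidation and other PPAR-alpha targets 30 were negative, with Angptl4 (−0.72) the only one at an unadjusted p under 0.05 (2.5%). Of 21 genes of de novo lipogenesis 1 had such a p (4.76%), Mid1ip1, an activator of acetyl-CoA carboxylase, at 0.86 ± 0.20, and of 22 genes of unsaturated fatty acid synthesis 1 did (4.55%), Fads6 at 0.25. Of 33 glutathione transferases and NRF2 targets, 23 were negative, with 3 negative and 1 positive at such a p (12.1%, median −0.21), among them Gpx1 (−0.45) and Gstm1 (−0.46). Without mouse 182 there were 7 negative and 1 positive (24.2%, against 7.64% of all genes), with a median of −0.23. The 77 nuclear genes of oxidative phosphorylation had 2 such p (2.6%, median −0.039), and the 78 cytosolic ribosomal protein genes had 1 (1.28%, median −0.0031). Without mouse 182 the counts became 2 of 40 PPAR-alpha targets, 2 of 21 lipogenesis genes, 1 of 77 oxidative phosphorylation genes and 2 of 78 ribosomal protein genes, and the lipogenesis median went from −0.12 to 0.0027.

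**Figure D5:**
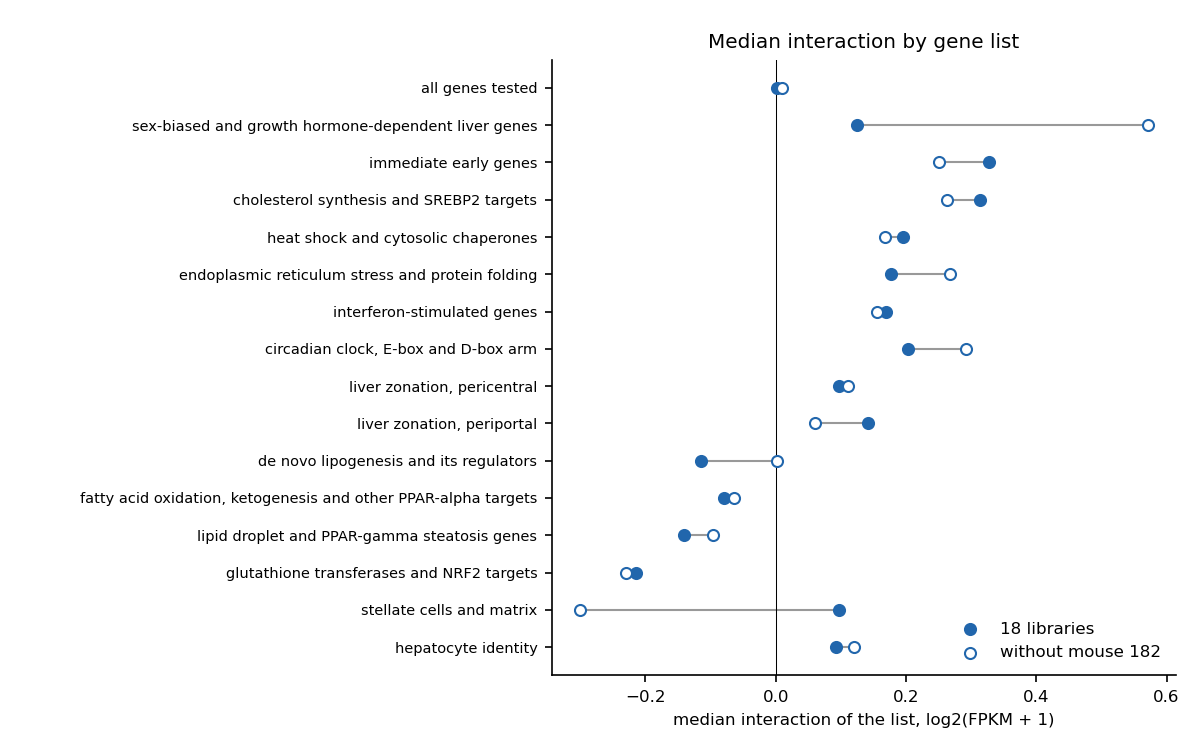
Median interaction of each gene list, in log2(FPKM + 1), with all 18 libraries (filled) and without mouse 182 (open), joined by a line, beside the median of all genes tested. The list of sex-biased genes moves from 0.12 to 0.57 and that of stellate cells and matrix from 0.097 to −0.30, and the other lists move less.

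Markers of other cells were counted in the same way. Of 32 hepatocyte identity genes 0 had an unadjusted p under 0.05, or 1 without mouse 182, and the median was 0.093. Of 21 Kupffer cell genes and 20 liver endothelium genes 0 did either, with medians of −0.059 and 0.019. Of 6 lymphocyte genes tested of 30 listed 0 did. Of 12 cholangiocyte genes 2 did, Sox9 and Krt23, in opposite directions. The 30 genes of stellate cells and matrix had 1, Ecm1 (−0.46), and a median of 0.097, which became −0.30 without mouse 182. In that mouse the collagen gene Col1a1 was 17.3 FPKM, against 1.17 to 1.7 FPKM in the other WT livers on NCD. Blood genes had 0 of 7 and adipocyte genes 0 of 6. Of 13 exocrine pancreas genes 2 were tested, the elastase gene Cela1, at 0.71 (unadjusted p = 0.0316, limma), and the chymotrypsinogen gene Ctrb1, at −2.35 (unadjusted p = 0.150, limma). Ctrb1 had 480 reads in KO NCD mouse 166, 852 reads in WT HFD mouse 155 and 0 to 2 reads in every other liver. The remaining 11 genes of that list together had 3 and 5 reads in these 2 livers and 0 to 14 reads in the others. Seen afterwards, these 2 livers were also the highest for Anxa13 of the cholangiocyte list, at 130 and 274 reads against 12 to 104. The same held for Des of the stellate list, at 340 and 424 reads against 55 to 203. For Sox9 and Krt23 they were not the highest. The source of these reads was not tested. Without these 2 livers, a choice made after the values were seen, 2 genes passed the threshold, 737 had an unadjusted p under 0.05, and 38 were reversed, 18 of them towards KO on HFD, with 29 of the 54 among them. The part of other cells in the results above was not tested beyond these counts.

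The same genes were looked up in the fat of the same mice. Of the 54 genes 46 were tested in fat, where 21 had an interaction of the same sign (45.7%, against 47.2% of all 11489 genes tested in both tissues), and 6 had an unadjusted p under 0.05 there. Among the genes named, these were Gm5540, Pctp, Cdkn2aip and Smad7, all with the sign they had in liver. On NCD, Smad7 in fat was 5.74 FPKM in WT mouse 183, against 1.91 to 2.56 FPKM in the other WT and 1.96 to 2.79 FPKM in the KO mice. In fat 0 of 14136 genes passed the threshold with limma (0%), while 1867 had an unadjusted p under 0.05 (13.2%). The share of 6 of 46 is close to that of all genes, so it shows no particular agreement between the tissues.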

How the data were processed

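Messenger RNA of 18 livers was sequenced for the authors, who mapped the reads to mm39 and counted them per gene with featureCounts 1.5.0-p3 (per the labels and the paper's methods). Strandedness, annotation release and the handling of reads that fit several genes are not given in the sources used here. The values analysed are the FPKM per gene and library that the authors deposited for 56748 genes. The authors also deposited counts of reads per gene for the genes in each comparison table, and these were used to turn the FPKM back into reads. The result was whole for 100% of the values, within 0.01 read. The fold changes and p-values in the deposited tables are the authors' own and were not used, nor were 90 other columns of values per sample.

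Genes whose mean over the 18 livers was 0.5 FPKM or more were tested as log2(FPKM + 1) with limma 3.58.1 (R 4.3.3), empirical Bayes with trend, in a model of the 4 liver groups over 18 mice, with Benjamini-Hochberg adjustment over 13248 genes. Standard errors are those of limma. For 7 genes of the study, two-sided exact permutation tests exchanged genotypes within each diet. Alternatives tried were 0.1 as pseudocount, dropping the filter, raising it to 1 FPKM, the TPM scale, edgeR 4.0.16 and DESeq2 1.42.0 on the recovered reads, robust empirical Bayes, array weights and leaving out each mouse. Leaving out libraries apart on the principal components meant leaving out mouse 182. The 32 pairs of replicates had a chi-square of 12.1 to 123 per gene, so none were alike within sampling noise. Reads on genes were 20875463 to 25530574 per library, and genes near the filter rest on few reads. The script was tested on simulated data.

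Genes named are those past the threshold, those with all mice apart on both diets, the 12 largest reversed genes in each direction that reach a mean of 1 FPKM in any group, 7 genes of the study and up to 4 per list. Predicted genes were counted and not named, apart from Gm5540, which passed the threshold, and Gm7049, and some results that the rule names are not reported here. Members and lists were chosen with earlier results of these data known. The Wnt and TGF-beta lists, the TCF/LEF words and genes said to be named after their values were seen are additions. Promoters are from RefSeq (GRCm38.p6) and transcripts from GENCODE on GRCm39, and coordinates are those of the deposited table. Identity of copies was measured as the share of 31-base words.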

Additional observations from a re-analysis of the deposited data

Results flagged for a closer look

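The interaction of genotype with diet passed the test of the difference for the pseudogene Gm5540, at 5.42 (adjusted p = 0.00217, limma). With edgeR its adjusted p was 0.0501, the same 10 mice were high and 8 low for it in liver and fat, and the split of its reads from those of Acsf2 is uncertain.

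In 36 genes named above, 144 groups of 4 or 5 mice were checked for a mouse far from the rest of its group by Dixon's 95% limit, and 12 values were beyond it, where chance gives about 1 in 20 groups. Of the 12, 5 came from the library labelled WT NCD mouse 182. It had 24.0 FPKM of Gm5540, where the nearest WT NCD mouse had 12.6 FPKM, and 8.36 FPKM of Irf1, nearest 6.75 FPKM. It had 7.73 FPKM of Apbb3, nearest 9.33 FPKM, 51.5 FPKM of Mlxipl, nearest 88.9 FPKM, and 19.0 FPKM of Ip6k2, nearest 24.9 FPKM. WT HFD mouse 162 had 9.84 FPKM of Gm5540, nearest 0.756 FPKM, and 2.99 FPKM of Mlkl, nearest 2.71 FPKM. KO HFD mouse 157 had 4.79 FPKM of Alg14, nearest 5.46 FPKM, and 122 FPKM of Mlxipl, nearest 98.8 FPKM. KO HFD mouse 152 had 3.46 FPKM of Mlkl, nearest 2.07 FPKM, and KO HFD mouse 151 had 5.62 FPKM of Ip6k2, nearest 8.52 FPKM. KO NCD mouse 166 had 1.06 FPKM of Axin2, nearest 1.87 FPKM.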

How the results depend on the processing

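The count of genes past the threshold, 2 with limma, was 4 with a mean of at least 1 FPKM, where Tbx3 and Sertad3 were added, 1 with edgeR, 63 with DESeq2 (46 positive, 17 negative, 1341 genes without an adjusted p) and 10 with array weights, and with 1 mouse left out it was 2 to 5, the highest without WT NCD mouse 165. Gm5540 was called under each alternative except edgeR and DESeq2, and DESeq2 gave no adjusted p for it. Genes named above that DESeq2 called and limma did not include Tbx3, Sertad3, Axin2, Rnf43, Sp5, Fzd5, Fzd7, Sox9, Smad7, Skil, Id2, Alas1, Wfdc2, Chac1 and Lsm5. The 54 reversed genes became 89 with array weights and 37 to 74 with 1 mouse left out (37 without KO NCD mouse 166, 74 without KO NCD mouse 179). The 811 genes with an unadjusted p under 0.05 became 1354 without the filter and 705 to 1008 with 1 mouse left out. The TPM scale gave a median interaction of −0.0393, against 0.0015, and 57 reversed genes, 29 of them towards KO on HFD, with 35 of the 54 kept.

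Of 87 genes checked, those with a change of sign were Gm7049 (0.0496 with a pseudocount of 0.1, 2.32 with edgeR and 2.43 with DESeq2), Mlkl (−0.19 to 0.13 with 1 mouse left out), Mup7 (−0.21 to 3.15), Mlxipl (−0.29 to 0.0026) and Ppara (−0.0024 without the 2 livers with Ctrb1 reads). None of the last 4 was called in any fit. The causes were not tested. No paired analysis was possible because the groups compared share no mouse numbers within liver. Groups of 4 or 5 mice, genes near 0.5 FPKM and genes that share sequence with a copy limit what these data can show, and a p above the threshold does not show that effects were alike on both diets.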
